A study of Homo sapiens with 6 samples.

Results

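FANCA encodes a large subunit of the Fanconi anaemia core complex, the ubiquitin ligase assembly that marks FANCD2 and FANCI when DNA strands are cross-linked to each other. Loss of the gene is the most common cause of Fanconi anaemia, a disorder of bone marrow failure and cancer risk. Its introns are rich in Alu repeats, short retroelements whose copies in opposite orientation can fold into double-stranded RNA. DHX9, also called RNA helicase A, unwinds double-stranded RNA, and the study's title names Alu elements as the source of the RNA defects it addresses.

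The peaks described here are those that overlap chr16:89803957-89883065 of the human assembly hg19 on the minus strand, the position of FANCA. This span of 79109 nt held 130 of the 28449 peaks in the deposited lists. Of these, 47 came from the 6831 peaks of the antibody DHX9-mAb and 83 from the 21618 peaks of the antibody DHX9-Rb. None of the 130 crossed an end of the span. FANCA therefore held 0.688% of the DHX9-mAb list and 0.384% of the DHX9-Rb list. FANCA was chosen by its peaks in these same 2 lists, which are many with both antibodies. Its peak numbers, covered sequence and shared peaks are therefore descriptions, and no test was made on them.

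The data come from FLASH, a cross-linking and immunoprecipitation assay in which ultraviolet light fixes proteins to the RNA they touch and the RNA fragments pulled down with the protein are sequenced. The cells were HEK293, a long-established line from human embryonic kidney, and the labels give no treatment. The groups were DHX9-mAb and DHX9-Rb, 2 antibodies against DHX9, and the control immunoglobulin IgG-Rb, each with 2 biological replicates. Both replicates of an antibody stand behind 1 peak list, so no spread between replicates can be given for any value. The lists give positions and strands without a height, fold or p-value. The read depth is unknown, and a peak says that a region was called, not how strongly it was bound. Values for IgG-Rb were not used here, and control material was mixed with DHX9 material before the cDNA was made. Peak positions cannot check the labelled cell line against markers.

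Along FANCA the peaks of both antibodies lay in separate blocks, the longest of them near the 5′ end, with long stretches between them that neither antibody marked. The DHX9-mAb peaks covered 11518 nt of the span (14.6%) and the DHX9-Rb peaks 25911 nt (32.8%). Either antibody covered 27115 nt (34.3%), and 10314 nt lay under peaks of both. Inside the span 0 DHX9-mAb and 0 DHX9-Rb peaks lay on the plus strand, so every peak there was on the strand from which FANCA is transcribed.

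The covered sequence was larger than the annotated exons of the gene. In the GENCODE 29 annotation FANCA has 32 transcripts, and the longest, FANCA-202, has 43 exons and 5451 nt. The exons of all 32 transcripts, those with retained introns included, sum to 9736 nt. That annotation is on GRCh38, where the gene has the same length as the hg19 span, 79109 nt, so lengths were set side by side and positions were not. The DHX9-Rb peaks covered 16175 nt more than all annotated exons could hold, so at least 62.4% of their sequence lay in introns if the exon lengths are the same in hg19. For DHX9-mAb the excess was 1782 nt. Which single peaks were exonic was not determined.

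**Figure D1:**
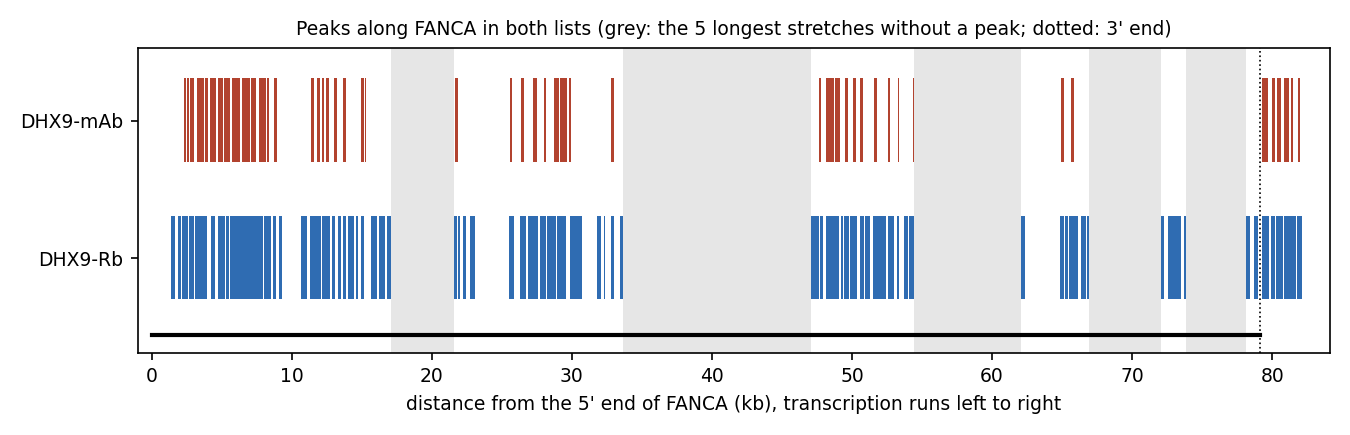
Peaks along FANCA by distance from its 5′ end in kb, with DHX9-mAb in the upper row, DHX9-Rb in the lower row and the gene as a black line. Grey marks the 5 longest stretches without a peak, the longest of them 13412 nt, and the dotted line is the 3′ end of the gene, behind which each antibody has 7 more peaks.

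The 5′ end of the gene carried the longest block of peaks. With blocks set apart by at least 2000 nt without a peak of either list, a limit chosen after the positions had been seen, the gene had 8 blocks. The first, chr16:89866013-89881723, began 1342 nt from the gene start and was 15711 nt long. It held 25 of the 47 DHX9-mAb peaks and 32 of the 83 DHX9-Rb peaks. DHX9-mAb covered 41.7% of it and DHX9-Rb 68.8%. With a limit of 1000 nt the gene had 10 blocks, and with 5000 nt it had 4. At 1000 nt the first block was split by a gap of 1365 nt, so values per block depend on the limit.

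Within this block the antibodies started at different points. The first DHX9-mAb peak, chr16:89880616-89880793, began 2272 nt from the gene start and was 178 nt wide. The first DHX9-Rb peak, chr16:89881426-89881723, began at 1342 nt and was 298 nt wide. The DHX9-Rb list thus had 2 peaks that ended before DHX9-mAb had any, at 1342 to 1639 nt and at 1875 to 2064 nt. From there on the DHX9-mAb peaks formed a close row with open spaces between them. Between 2272 and 8946 nt, 17 DHX9-mAb peaks followed each other with less than 1000 nt between neighbours and covered 73.1% of that stretch. A row of DHX9-Rb peaks at 1342 to 9319 nt, also of 17 peaks, covered 79.7%. The first 10% of the gene held 14 peaks of DHX9-mAb and 14 of DHX9-Rb, and in each of the other 9 parts of that length DHX9-Rb had more peaks.

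The other large blocks lay in the middle of the gene. The third block, chr16:89849386-89857547, held 8 DHX9-mAb and 17 DHX9-Rb peaks at 25518 to 33679 nt from the gene start. Coverage there was 25.1% with DHX9-mAb and 60.7% with DHX9-Rb. The fourth block, chr16:89828645-89835973, held 11 DHX9-mAb and 16 DHX9-Rb peaks at 47092 to 54420 nt. In it DHX9-mAb covered 31.0% and DHX9-Rb 73.4%. Coverage by DHX9-Rb in these 2 blocks was close to that in the first block, while coverage by DHX9-mAb was lower. A short block between the first and the third, chr16:89859993-89861493, held 1 DHX9-mAb peak of 190 nt and 4 DHX9-Rb peaks.

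Toward the 3′ end the DHX9-mAb peaks thinned out before the DHX9-Rb peaks did. Behind the fourth block DHX9-mAb had 2 peaks, chr16:89817912-89818116 and chr16:89817188-89817442, and DHX9-Rb had 14. The last DHX9-mAb peak ended 13231 nt before the 3′ end of the gene. The last DHX9-Rb peak, chr16:89804084-89804346, ended 127 nt before it. In the last blocks, at 72068 to 73811 nt and at 78106 to 78981 nt, DHX9-mAb had 0 and 0 peaks and DHX9-Rb had 5 and 2. From the 5 peaks it was 5480 to 6266 nt to the nearest DHX9-mAb peak, which for 4 of them was the peak chr16:89803520-89803773 past the 3′ end of the gene.

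The balance of the peaks along the gene was similar in direction for the antibodies. On the 5′ side of the gene's midpoint lay 34 of the 47 DHX9-mAb peaks, 72.3% with a 95% Wilson interval of 58.2 to 83.1. For DHX9-Rb it was 53 of 83, or 63.9% (53.1 to 73.4). These intervals cover counting error only and treat the peaks of 1 transcript as independent, which they are not. In 10 bins of equal length from 5′ to 3′, the DHX9-mAb peaks numbered 14, 11, 1, 7, 1, 0, 11, 0, 2 and 0. The DHX9-Rb peaks numbered 14, 14, 8, 13, 4, 1, 15, 1, 6 and 7. The bins without a DHX9-mAb peak, bins 6, 8 and 10, held 1, 1 and 7 DHX9-Rb peaks.

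**Figure D2:**
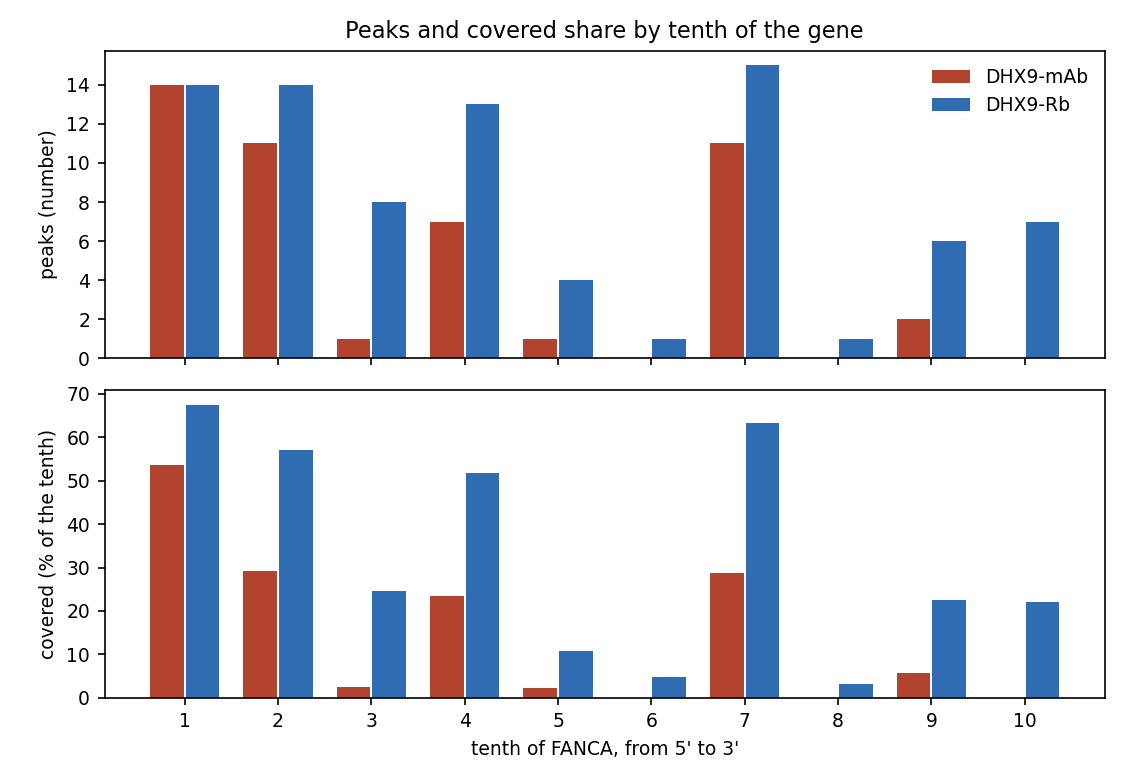
Number of peaks (above) and covered share in percent (below) in 10 equal bins of FANCA from 5′ to 3′, with bars for DHX9-mAb and DHX9-Rb. Both antibodies are high in bins 1, 2, 4 and 7, and DHX9-mAb has 0 peaks in bins 6, 8 and 10.

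A stretch of 13412 nt near the middle of the gene, chr16:89835974-89849385, had no peak of either antibody. It lay between the last DHX9-Rb peak of the third block, chr16:89849386-89849639, and the first of the fourth block, chr16:89835441-89835973. These peaks were 254 and 533 nt wide. The nearest DHX9-mAb peaks stood a little further back on both sides, so the gap was 14639 nt for DHX9-mAb alone.

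The next 4 stretches without a peak were shorter. They were chr16:89821001-89828644 with 7644 nt, chr16:89810998-89816132 with 5135 nt, chr16:89861494-89866012 with 4519 nt and chr16:89804960-89809253 with 4294 nt. A single DHX9-Rb peak of 259 nt, chr16:89820742-89821000, bounded the first of these on its 3′ side and formed a block of its own. The 5 longest stretches summed to 35004 nt, 44.2% of the gene. Of the 5, 3 lay behind the fourth block, 1 was the central one and 1 followed the first block. Over all 73 gaps of the span the median was 117 nt, and 10 of them reached 1000 nt. For DHX9-mAb alone the second longest gap was the stretch of 13231 nt up to the 3′ end, in which 10 DHX9-Rb peaks lay wholly or in part.

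Nearly every DHX9-mAb peak on FANCA had at least 1 nt in common with a DHX9-Rb peak, but the shared part of both lists depended on the overlap asked for. Peaks that had 1 nt or more in common on 1 strand were counted as shared between the antibodies. On FANCA 46 of the 47 DHX9-mAb peaks were shared, 97.9% (Wilson 88.9 to 99.6), where 88.0% of the whole DHX9-mAb list was. Of the 83 DHX9-Rb peaks 48 were shared, 57.8% (47.1 to 67.9), where 28.6% of the whole DHX9-Rb list was. With an overlap of at least 50% of both peaks, the shares on FANCA were 61.7% of the DHX9-mAb peaks and 34.9% of the DHX9-Rb peaks. With at least 50% of the peak itself they were 89.4% and 37.3%, and among peaks at least as wide as the median of their list 100% and 47.1%. In nucleotides, 89.5% of the DHX9-mAb sequence on FANCA was also covered by DHX9-Rb, against 73.7% in the rest of the list. For the DHX9-Rb sequence these shares were 39.8% on FANCA and 21.9% in the rest. These differences were not tested, since the gene was chosen from the same lists. The Wilson intervals here also treat the peaks of 1 transcript as independent.

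The one DHX9-mAb peak without a partner was chr16:89867764-89867863, 100 nt wide, at 15202 to 15301 nt from the gene start. It lay 23 nt from the nearest DHX9-Rb peak, and the next DHX9-mAb peak on its 5′ side was shared. At a width of 84 nt the narrowest DHX9-mAb peak of the gene, chr16:89829720-89829803, was shared.

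Most of the 35 DHX9-Rb peaks without a partner stood close to a DHX9-mAb peak. The distance was at most 1000 nt for 28 of them and at most 500 nt for 21, with a median of 391 nt. In 1 case it was 1498 nt. The other 6 were more than 2000 nt away, the 5 peaks of chr16:89809254-89810997 and the lone peak chr16:89820742-89821000. At the 3′ end of the first block, 4 unshared DHX9-Rb peaks in a row, between 15618 and 17052 nt, followed the last DHX9-mAb peak of that block. The peak pair at the gene's 3′ end was 310 and 908 nt from a DHX9-mAb peak, and that DHX9-mAb peak lay outside the gene.

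Like peaks of other peak-rich stretches, those on FANCA were wider at the median than the rest of the lists, more so with DHX9-Rb. The DHX9-mAb peaks had a median width of 226 nt (95% order-statistic interval 190 to 255) with quartiles of 171 and 279 nt, against 191 nt in the rest (146 and 256). Of the 47, 10 reached 300 nt, or 21.3% (Wilson 12.0 to 34.9), against 15.4% in the rest. The median of the DHX9-Rb peaks was 288 nt (259 to 342), with quartiles of 228.5 and 397 nt, against 201 nt in the rest (152 and 272). Widths of 300 nt or more occurred in 38 of the 83, 45.8% (35.5 to 56.5), against 19.3% in the rest. Both DHX9-mAb intervals took in the value of the rest, and both DHX9-Rb intervals lay above it. All of these intervals treat the peaks as independent, which they are not, and no difference was tested. The widest DHX9-mAb peak, chr16:89876054-89876654 with 601 nt, lay wholly inside the widest DHX9-Rb peak, chr16:89875976-89876732 with 757 nt. The narrowest DHX9-Rb peak, chr16:89855238-89855323, measured 86 nt. For other stretches of the gene's length with at least 10 peaks of each antibody, the median of the median widths was 208.5 nt with DHX9-mAb. With DHX9-Rb it was 233 nt.

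Among the DHX9-Rb peaks the shared ones were wider than the others. The 48 shared peaks had a median of 336 nt (105 to 757) and the 35 unshared ones 254 nt (86 to 498), so the ranges overlapped over most of their length. A wider region has more room to meet another, and width and sharing are therefore not separate measures. By block, the median DHX9-mAb width was 240 nt in the first block, 203 nt in the third and 195 nt in the fourth. The DHX9-Rb medians in the same blocks were 296, 266 and 338.5 nt. The fourth block thus had the largest DHX9-Rb median of the 3 and the smallest DHX9-mAb median, the latter only slightly below that of the third.

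**Figure D3:**
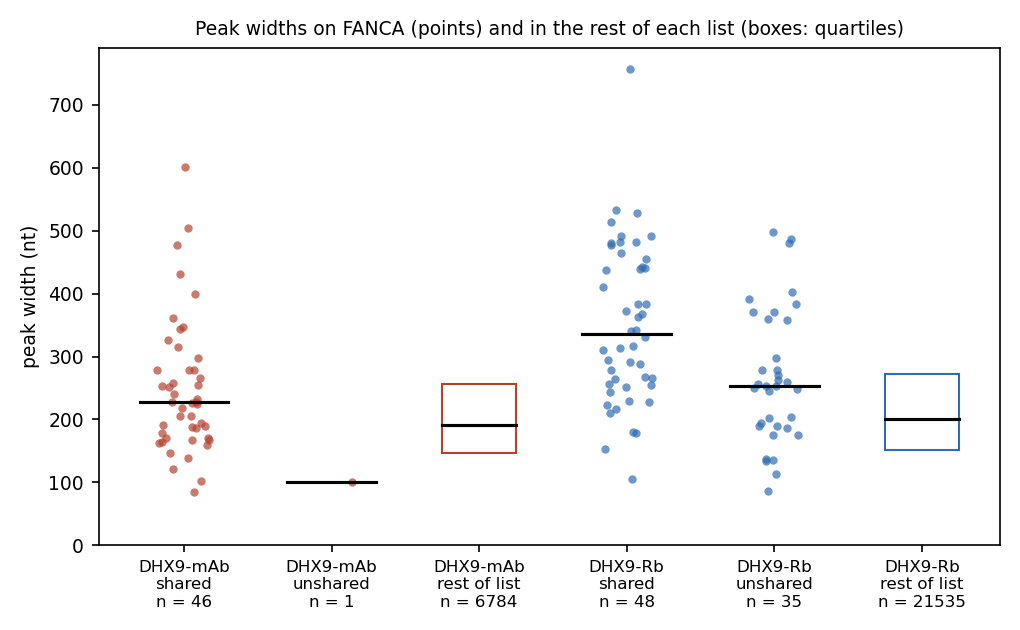
Peak widths in nt on FANCA as points, split by antibody and by overlap with the other antibody, with the median as a line, beside the quartiles and median of the rest of each list. Shared DHX9-Rb peaks have a median of 336 nt, against 254 nt for unshared ones and 201 nt in the rest of the list.

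Neighbouring peaks were closely spaced in both lists. The median distance from centre to centre was 562 nt between the 47 DHX9-mAb peaks (quartiles 367.75 and 818.375) and 457.25 nt between the 83 DHX9-Rb peaks (373.5 and 589.625). Over the whole lists the medians were 1489.75 nt and 753.5 nt. When neighbours more than 2000 nt apart were left out, most of this distance from the whole lists went away. The medians were then 510.75 nt for DHX9-mAb on FANCA, against 533 nt in its whole list, and 446 nt for DHX9-Rb, against 498 nt.

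The space left between neighbours was small with DHX9-Rb. Its median was 267 nt for DHX9-mAb, against 113.5 nt for DHX9-Rb. Of the 46 neighbouring DHX9-mAb pairs 8 were 50 nt or less apart, 17.4% against 7.62% in the whole list. Of the 82 DHX9-Rb pairs 24 were, 29.3% against 11.5%. These shares count all neighbours, and the whole lists had more neighbours that were far apart. On FANCA 40 of the 46 DHX9-mAb pairs were at most 2000 nt apart, against 3645 of 6782 in the whole list. For DHX9-Rb it was 75 of 82, against 14702 of 21569. The shares at 50 nt were not taken among such near neighbours alone. In the closest DHX9-mAb pair 5 nt separated the peaks. No DHX9-mAb neighbours overlapped, but 2 pairs of DHX9-Rb neighbours did, by 140 nt at chr16:89816922-89817605 and by 160 nt at chr16:89866429-89866862. Regions called apart from each other can thus be parts of 1 covered stretch, and a peak number on FANCA is not a number of separate binding sites.

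The overlapping peaks formed 25 pairs of 1 DHX9-mAb and 1 DHX9-Rb peak and 12 larger groups. The larger groups took in 21 DHX9-mAb and 23 DHX9-Rb peaks. In 2 of them a pair of DHX9-mAb peaks lay on 1 DHX9-Rb peak, in 4 a DHX9-mAb peak lay on 2 DHX9-Rb peaks, and in 3 there were 2 of each. The largest numbers were 3 DHX9-mAb peaks on 2 DHX9-Rb peaks, at chr16:89877477-89878362 and chr16:89833924-89834915, and 1 DHX9-mAb peak on 3 DHX9-Rb peaks at chr16:89853950-89854847. The groups of 2 DHX9-mAb peaks on 1 DHX9-Rb peak, chr16:89880398-89880921 and chr16:89874564-89875111, were both in the first block. So were the groups with 2 of each, chr16:89879031-89879962, chr16:89876763-89877457 and chr16:89870342-89870919. The groups of 1 DHX9-mAb peak on 2 DHX9-Rb peaks all lay further 3′, at chr16:89861040-89861493, chr16:89857172-89857547, chr16:89835124-89835973 and chr16:89816922-89817605.

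In the one-to-one pairs the centres lay close together, and the DHX9-mAb peak was usually the narrower one. The median distance between centres was 34 nt, and 15 of the 25 pairs lay within 50 nt, 60% against 70.3% of the 4531 such pairs in the rest of the lists. In the rest the median was 27.5 nt. The offset had no common direction. The DHX9-mAb centre was further 3′ in 13 pairs and further 5′ in 11, and in 1 pair the centres were equal. DHX9-Rb was wider in 22 of the 25 pairs, 88% against 67.6% in the rest. The median width difference, DHX9-mAb minus DHX9-Rb, was -111 nt, against -36 nt in the rest. The DHX9-mAb peak lay wholly inside its partner in 14 pairs, 56% against 39.6%.

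At the median, both edges of the DHX9-mAb peaks lay inside those of their partners. The 5′ edge of the DHX9-mAb peak lay a median of 49 nt downstream of that of its partner, and the 3′ edge 17 nt upstream. Quartiles were -1 and 107 nt for the 5′ edge and -71 and -2 nt for the 3′ edge, counted along the transcript. The closest pair was the widest peak of each list, with a centre offset of 0 nt. The next were the DHX9-mAb peaks chr16:89867897-89868136, with an offset of -1.5 nt, and chr16:89856456-89856673, with -5.5 nt, and in both the DHX9-mAb centre was the one further 5′. The farthest were chr16:89853101-89853264 with -197.5 nt, chr16:89869854-89870020 with 153.5 nt and chr16:89830325-89830491 with -145.5 nt. In these 3 pairs the DHX9-mAb peak reached past an edge of its partner, and the overlap took up 68.3%, 41.3% and 85.6% of it.

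**Figure D4:**
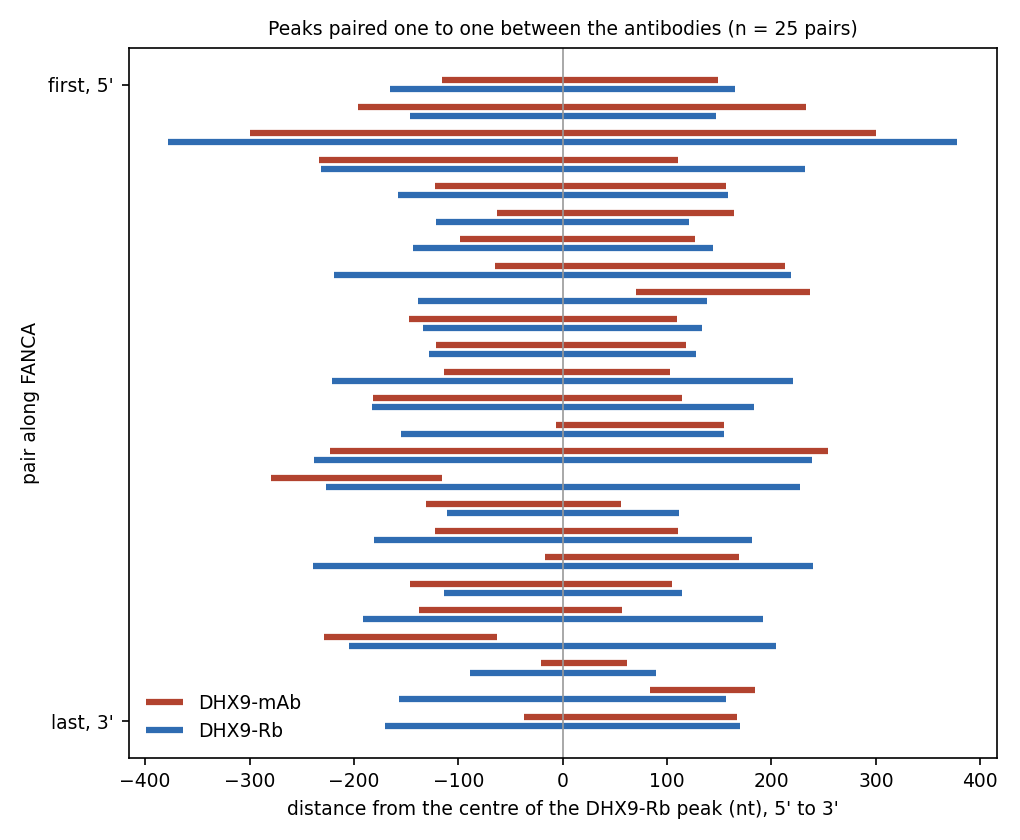
Extent of the peaks in the 25 one-to-one pairs along FANCA, each drawn from the centre of its DHX9-Rb peak in nt, with DHX9-mAb above DHX9-Rb. DHX9-mAb is the narrower in 22 pairs and lies wholly inside its partner in 14.

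Peaks of both antibodies continued behind the annotated 3′ end of FANCA. In the 10 kb past the end, 7 DHX9-mAb and 7 DHX9-Rb peaks lay on the minus strand, and 0 of either on the plus strand. They formed 1 block, from 89801110 to 89803773 with DHX9-mAb and from 89800955 to 89803766 with DHX9-Rb. The space between the gene end and the nearest peak was 183 nt for DHX9-mAb, against 190 nt for DHX9-Rb. All 7 DHX9-mAb and 6 of the 7 DHX9-Rb peaks were shared. DHX9-mAb covered 57.9% of its stretch and DHX9-Rb 80.9%.

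This block differed from the end of the gene in front of it. Over the last 13231 nt of FANCA DHX9-mAb had no peak, and 183 nt past the annotated end it had one of 254 nt, chr16:89803520-89803773. Median widths past the end were 235 nt for the DHX9-mAb peaks and 372 nt for the DHX9-Rb peaks. Of the DHX9-mAb sequence there 93.8% was also covered by DHX9-Rb, and of the DHX9-Rb sequence 63.6% by DHX9-mAb. The next minus-strand peaks further on were chr16:89722343-89722604 of DHX9-mAb, 81353 nt past the gene end, and chr16:89782357-89782611 of DHX9-Rb, at 21346 nt. In the GRCh38 annotation the gene ZNF276 overlaps the 3′ end of FANCA on the opposite strand. Whether the RNA in this block belongs to a FANCA transcript that runs on was not tested.

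At the 5′ end the limit was sharp. No peak of either list lay in the 10 kb before the gene start on any strand. From the gene start to the end of the chromosome, the minus strand had 1 DHX9-mAb peak and 0 DHX9-Rb peaks, while the plus strand had 14 and 47.

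FANCA was set against other stretches of the same length. The strands were divided into stretches of 79109 nt, which stand in for genes because no annotation of hg19 was used, and 146 of them outside FANCA held at least 10 peaks of each antibody. In 2 of the 146 there were at least as many DHX9-mAb peaks as on FANCA, and in 2 at least as many DHX9-Rb peaks. The number of DHX9-mAb peaks per DHX9-Rb peak was 0.566 on FANCA, against 0.315 in the rest of the lists. It was 0.5 in the median dense stretch (range 0.226 to 1.65), and 46 of the 146 had a higher value than FANCA. The borders of these stretches can split a gene, while the FANCA span was laid on one.

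Agreement and width of the peaks on FANCA lay within the range of the dense stretches. The shared part of the DHX9-mAb peaks was higher than on FANCA in 64 of the 146, with a median of 94.7% over them. For the DHX9-Rb peaks it was higher in 37, with a median of 48.2%. The median DHX9-mAb width was larger than on FANCA in 46 of the stretches, and the median DHX9-Rb width in 19. Over the stretches these median widths had a median of 208.5 nt for DHX9-mAb (quartiles 187.25 and 233.75). For DHX9-Rb it was 233 nt (209.25 and 256.375). Width of the DHX9-Rb peaks was thus the measure of these 4 in which FANCA stood nearest to the upper end.

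The stretches most like FANCA in the peak numbers of both antibodies, by distance on a log2 scale, were on chromosomes 1 and 19. The closest, on the minus strand of chromosome 1 from 21440212 to 21502637, had 48 DHX9-mAb and 90 DHX9-Rb peaks. Its median widths were 199.5 and 220 nt, against 226 and 288 nt on FANCA. On the plus strand of chromosome 19, from 58303443 to 58379530, there were 37 and 70 peaks with medians of 206 and 266.5 nt. On the plus strand of chromosome 1, from 113521850 to 113584363, there were 38 and 105 peaks with medians of 203 and 230 nt. In all 3 the median widths were below those of FANCA for both antibodies. The shared part of the DHX9-Rb peaks was 51.1%, 48.6% and 38.1% in these stretches, against 57.8% on FANCA.

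**Figure D5:**
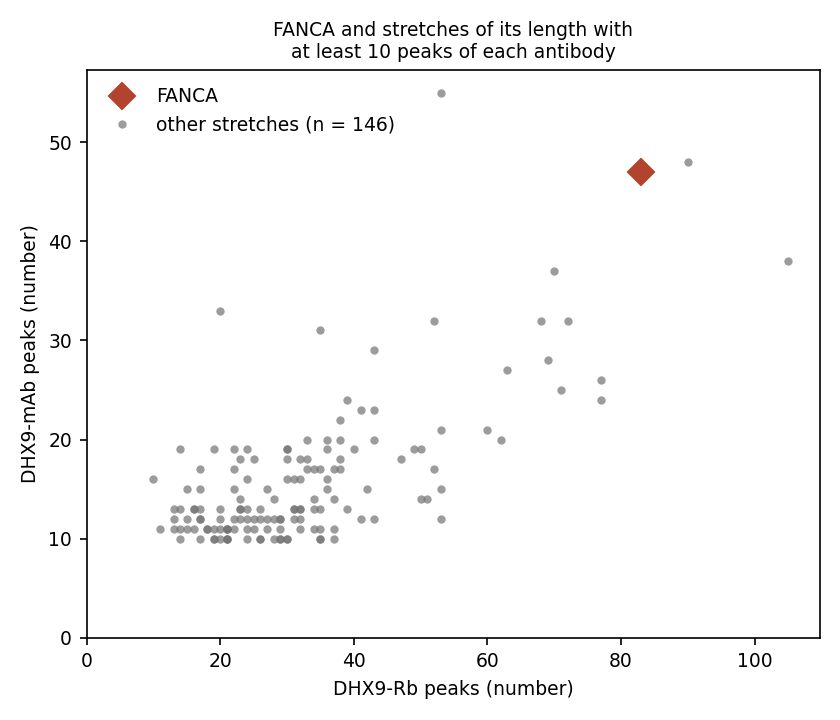
Number of DHX9-mAb peaks against number of DHX9-Rb peaks for FANCA (diamond) and for 146 other stretches of its length with at least 10 peaks of each antibody (points). FANCA, with 47 DHX9-mAb and 83 DHX9-Rb peaks, is at the upper right, and 2 points lie as high or higher and 2 as far right or further.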

How the data were processed

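The material was 2 deposited peak lists from DHX9 FLASH in HEK293 cells, 1 list per antibody, each named in the labels of both replicates. Per the labels, reads carried random bases to merge PCR duplicates. Bowtie2 2.2.6 and the assembly hg19 are named in the submitters' processing notes. Per the file columns, regions were called with PEAKachu; for its control, threshold and settings, and for the handling of reads from repeats, the sources used here give nothing. Such handling could change which peaks were called in an Alu-rich gene. Each deposited row holds a region's start and end, counted from 1, and the score column was empty in both lists (0 cells with a number).

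The span and strand of FANCA were set as its hg19 position. Peaks, gaps, overlaps and distances were computed with Python 3.11.15, NumPy 2.4.6, SciPy 1.17.1 and networkx 3.6.1, and plots used matplotlib 3.10.9. Distances from the gene start count from its first base. Overlap needed 1 nt on the same strand. Intervals are 95% Wilson or order-statistic intervals, and all of them treat peaks of 1 transcript as independent, which they are not. Dense stretches needed at least 10 peaks of each list. Named peaks were the first and last, widest and narrowest, those at the 5 longest gaps, unshared DHX9-mAb peaks, members of larger overlap groups, and the closest and farthest pairs. The gene and these choices were made with earlier results of these data known. No test was run, since the gene was chosen from these values and values per replicate were not used here. Overlap and merging were tested on simulated data. Other Fanconi anaemia genes were not analysed, and no sequence is shown, because no hg19 annotation or sequence was used here.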

Additional observations from a re-analysis of the deposited data

How the results depend on the processing

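No paired analysis was possible because each list stands for both replicates of its antibody, and leaving out a replicate was not possible for the same reason. Of 52 alternative values for 21 results, 42 stayed within the interval of the reported value, within 1.5 times it or, for the place of the bin with the most peaks, within 10% of the gene's length. With an overlap of at least 50% of both peaks, the shared part fell to 61.7% of the DHX9-mAb peaks and 34.9% of the DHX9-Rb peaks on FANCA, and with at least 50% of the peak itself it was 37.3% for DHX9-Rb. With peaks within 50 nt merged, 39 DHX9-mAb and 59 DHX9-Rb peaks were left, a ratio of 0.661, and 100% of the DHX9-mAb peaks were shared. When peaks narrower than the median of their list were left out, 30 DHX9-mAb peaks were left, of which 100% were shared, and 47.1% of the DHX9-Rb peaks were. In 10 bins, the most DHX9-Rb peaks lay in the one centred at 65% of the gene, but with 5 bins in that at 10%. With 20 bins there was no single top bin, as bins 2, 4, 8 and 13 held 8 DHX9-Rb peaks each. The first of them, at 7.5%, was the one compared, and it was counted as outside the limit. Bin 13 lies inside the bin at 65%, so this count rests on the choice among tied bins. The most DHX9-mAb peaks lay in the bin at 5%, and with 5 or 20 bins in those at 10% and 7.5%. With stretches moved by 50% of their length, 0 of 145 held as many DHX9-mAb peaks as FANCA. With 5000 nt past the 3′ end added, a choice made after seeing the data, there were 54 DHX9-mAb and 90 DHX9-Rb peaks, a ratio of 0.6. Depth is unknown and no background level from IgG-Rb was used, so a stretch without a peak is not shown to be without binding.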
